A study of Mus musculus with 17 samples.

Results

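The *Zscan4* and *Usp17l* genes of mouse chromosome 7 are described here in control and *Ehmt2* GKO oocytes. The members are the rows of the deposited RNA count table whose gene name begins with *Zscan4* or *Usp17l*. They were 8 of the 2615 genes listed, namely *Zscan4-ps1*, *Zscan4c* and *Zscan4d*, and *Usp17la*, *Usp17lb*, *Usp17lc*, *Usp17ld* and *Usp17le*. The study asked what the loss of EHMT2, the enzyme that dimethylates histone H3 at lysine 9, does to the transcripts of the oocyte. The RNA of oocytes labelled as MII, from 8-week-old C57BL/6J females, was sequenced. There were 3 control libraries, with replicate numbers 1, 2 and 6, and 3 *Ehmt2* GKO libraries, with numbers 3, 4 and 5. The labels give the stage as MII, and the study's text describes the sequenced oocytes as superovulated. The study also reports that few *Ehmt2* GKO oocytes finished the first meiotic division, and that they arrested at metaphase I. Meiotic stage was not measured in these libraries, so the MII label was not checked. A difference in stage between the groups and the genotype cannot be told apart. Both groups carried the floxed *Ehmt2* alleles, *Ehmt2*(flox/flox), and the *Ehmt2* GKO group carried Gdf9-Cre in addition, a Cre recombinase driven by the promoter of the oocyte gene *Gdf9* that removes exons 4 to 20. The Cre transgene was therefore present in 1 group only, and its own effect and that of the deletion cannot be told apart in these libraries. How many oocytes or females went into a library was not given in the sources used here, so the P values measure only the spread between these libraries.

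ZSCAN4 proteins carry a SCAN domain and zinc fingers, and their transcripts appear in the mouse embryo at the 2-cell stage, when the embryonic genome is first widely transcribed, and in rare cells of embryonic stem cell cultures. They are known for their part in telomere lengthening by recombination. The *Usp17l* genes, also called Dub genes, encode deubiquitinating enzymes of the ubiquitin-specific protease class, and several of them belong to the same 2-cell programme, which the homeobox factor DUX can switch on in stem cells. Both families lie in arrays of near-identical copies.

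The table lists only genes to which the authors had given an adjusted P below 0.05, so a difference between the groups was the condition for a row. The P values therefore repeat this selection and serve as a description. Each library held between 4060653 and 4258350 reads on the listed genes, and its depth on the remaining genes is unknown. Counts were scaled by TMM factors, and a gene was called when its fold change exceeded 2 and its edgeR quasi-likelihood P, adjusted by Benjamini-Hochberg over 2516 tested genes, was below 0.01. By this rule 18.7% of the tested genes were called higher and 16.9% lower in *Ehmt2* GKO oocytes, and the median log2 fold change of all tested genes was -0.32. *Ehmt2* itself was not analysed here, so its counts do not check the genotypes. Of 21 oocyte markers 8 were listed, and their summed normalised counts ranged from 55892 to 67313 in control and from 62773 to 63945 in *Ehmt2* GKO libraries. Of 23 cumulus and granulosa markers 2 were listed, *Kitl* and *Ptgs2*, with sums of 336 to 384 and 246 to 335. None of these 10 markers was at 0 in any library.

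The start regions of the listed genes show how alike the copies of a family are. RefSeq windows on GRCm38.p6 of 300 bases, from 250 before to 50 after the transcription start, were found for 6 of the 8 members, all but *Zscan4-ps1* and *Usp17le*. The 4 shown are those of both *Zscan4* genes, of the *Usp17l* gene with the largest fitted fold change (*Usp17lc*) and of the *Usp17l* gene without a TATA match (*Usp17la*). Each is written 5′ to 3′ on the strand of its gene, and capitals mark exact matches, searched on both strands, to the TATA box letters TATAAA and to the CCAAT box letters CCAAT or, on the reverse strand, ATTGG.
Zscan4c, chr7:11005495-11005794, plus strand: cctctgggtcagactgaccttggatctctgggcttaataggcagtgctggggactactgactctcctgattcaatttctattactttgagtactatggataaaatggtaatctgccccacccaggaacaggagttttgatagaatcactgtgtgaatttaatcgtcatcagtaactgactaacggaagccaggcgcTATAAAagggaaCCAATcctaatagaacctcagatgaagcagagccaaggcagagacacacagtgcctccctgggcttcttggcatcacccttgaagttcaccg
Zscan4d, chr7:11166099-11166398, minus strand: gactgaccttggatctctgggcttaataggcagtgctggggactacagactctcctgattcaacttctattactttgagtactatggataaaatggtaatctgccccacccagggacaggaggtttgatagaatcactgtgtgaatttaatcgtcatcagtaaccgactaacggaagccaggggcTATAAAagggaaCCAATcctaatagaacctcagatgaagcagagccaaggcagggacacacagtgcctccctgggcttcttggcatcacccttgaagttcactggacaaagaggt
Usp17lc, chr7:103416446-103416745, plus strand: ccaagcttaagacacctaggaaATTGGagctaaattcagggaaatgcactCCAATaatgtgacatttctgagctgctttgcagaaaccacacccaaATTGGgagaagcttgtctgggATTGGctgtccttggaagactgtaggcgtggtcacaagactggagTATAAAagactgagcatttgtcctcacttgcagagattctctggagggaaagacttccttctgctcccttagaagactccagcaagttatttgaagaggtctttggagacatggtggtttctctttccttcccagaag
Usp17la, chr7:104856766-104857065, plus strand: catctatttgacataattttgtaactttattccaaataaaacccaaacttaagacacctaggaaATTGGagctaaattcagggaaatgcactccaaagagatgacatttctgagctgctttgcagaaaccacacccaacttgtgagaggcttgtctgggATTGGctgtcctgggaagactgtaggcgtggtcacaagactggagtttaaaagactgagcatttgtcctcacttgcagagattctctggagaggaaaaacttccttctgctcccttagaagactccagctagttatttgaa

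The *Zscan4c* and *Zscan4d* windows were 97.2% identical over 289 aligned bases, and both held TATAAA followed after a few bases by a CCAAT match on the same strand. The windows of the 4 *Usp17l* genes were 92.1% to 97.4% identical to each other, against 67.3% to 75.4% between the families. TATAAA stood on the gene's strand in 5 of the 6 windows, those of *Zscan4c*, *Zscan4d*, *Usp17ld*, *Usp17lc* and *Usp17lb*, while 13.6% of all 32851 RefSeq windows hold it on either strand. A CCAAT match stood in all 6, against 37.4% of all windows. None of the 6 held the DUX core letters GATTNAATC (0.268% of all windows), the E-box CACGTG (7.15%) or the E2F letters GCGGGA (20.0%). They were poor in CpG, with 4 in *Zscan4c*, 3 in *Zscan4d*, 1 each in *Usp17lc*, *Usp17lb* and *Usp17la* and 0 in *Usp17ld*. The median over all windows was 7, and 38.0% of all windows held at most 4. Copies of a family share descent, so these windows are not independent examples, and no binding was measured. For *Usp17lc* the RefSeq start lies inside the GENCODE gene, so its window is not that of the GENCODE start.

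All 3 listed *Zscan4* genes rose in *Ehmt2* GKO oocytes. *Zscan4-ps1* held most of the reads of the listed *Zscan4* genes, and *Zscan4d* and *Zscan4c* rose by more from far lower counts. *Zscan4-ps1* (ENSMUSG00000110103) lies at chr7:11065139-11069691 on the minus strand of GRCm38, in 4 exons. GENCODE and the deposited table give it as protein coding, while RefSeq lists it as a pseudogene. In the order of replicates 1, 2 and 6 its control counts were 368, 338 and 509, and in the order 3, 4 and 5 its *Ehmt2* GKO counts were 1213, 1107 and 1217, an order kept throughout. The groups lay far apart, and replicate 6 was the highest control. The normalised read count rose from 405 ± 83.1 to 1175 ± 41.6 (mean ± SD, n = 3 libraries), a log2 fold change of 1.54 (SE 0.140, edgeR adjusted P = 1.42e-07).

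*Zscan4d* (ENSMUSG00000090714), at chr7:11161374-11166159 on the minus strand, is a protein-coding copy with 4 exons. It was counted 30, 30 and 23 times in the control libraries and 160, 215 and 163 times in the *Ehmt2* GKO libraries. The groups did not overlap, and *Ehmt2* GKO replicate 4 was the highest, whereas the same library held the fewest *Zscan4-ps1* reads of its group. The log2 fold change was 2.69 (SE 0.259, edgeR adjusted P = 2.40e-07), from a normalised count of 27.8 ± 4.59 to 179 ± 35.1.

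*Zscan4c* (ENSMUSG00000054272), at chr7:11005745-11010547 on the plus strand, also protein coding with 4 exons, is the copy whose transcription is widely used to mark the 2-cell-like state of stem cells. Its counts were 0, 7 and 2 in control and 31, 31 and 24 in *Ehmt2* GKO libraries. The controls spread from no read to 7 reads, and all 3 lay below the lowest *Ehmt2* GKO library. The ratio of the summed counts, 9 in control against 86 in *Ehmt2* GKO, was 9.5 after scaling, with an exact 95% interval of 4.78 to 21.5 that covers counting error only. The log2 fold change was 3.20 (SE 0.603, edgeR adjusted P = 2e-04). It rested on control replicate 2, without which it was 4.66.

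All 5 listed *Usp17l* genes rose too, from control counts that were close to 0 in 3 of them. *Usp17lc* (ENSMUSG00000058976), at chr7:103415072-103419880 on the plus strand, had the largest fitted fold change of the 8 genes, although its counting interval overlaps that of *Usp17ld*, whose fold change was larger (7.03 against 6.04) without control replicate 6. Its counts were 1, 2 and 2 in control and 116, 86 and 126 in *Ehmt2* GKO libraries, so that the lowest *Ehmt2* GKO library stood far above all controls. The scaled ratio of 5 to 328 summed counts was 65.2 (exact 95% interval 27.7 to 202), and the log2 fold change was 5.92 (SE 0.441, edgeR adjusted P = 1.49e-08). A microRNA gene, *Gm25774*, lies within the bounds of *Usp17lc* and has its own row, with 0, 0 and 0 counts in control and 8, 5 and 11 in *Ehmt2* GKO. The counting was not stated to use strand, so reads of both genes cannot be told apart.

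*Usp17ld* (ENSMUSG00000057321), at chr7:103249737-103252505 on the minus strand, is the closest relative of *Usp17lc*. It was counted 0, 0 and 1 times in control and 22, 14 and 13 times in *Ehmt2* GKO libraries. With a single control read, the ratio of 48.7 had an exact 95% counting interval from 8.35 to 1960. The log2 fold change was 5.16 (SE 0.849, edgeR adjusted P = 5.94e-05), and it was 7.03 without control replicate 6, the library that held that read.

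*Usp17le* (ENSMUSG00000043073), at chr7:104768049-104777470 on the minus strand, had the widest spread of control counts among the listed *Usp17l* genes. They were 14, 2 and 7, against 96, 120 and 71 in *Ehmt2* GKO libraries, and the groups did not overlap. The log2 fold change was 3.61 (SE 0.446, edgeR adjusted P = 3.63e-06), and 4.38 without control replicate 1, the highest control. *Usp17lb* (ENSMUSG00000062369), at chr7:104840257-104842603 on the minus strand, was counted 6, 5 and 10 times in control and 58, 53 and 57 times in *Ehmt2* GKO libraries. Its *Ehmt2* GKO libraries lay closest together of all members relative to their mean, at a normalised count of 55.8 ± 1.46 against 6.99 ± 2.49 in control, a log2 fold change of 2.97 (SE 0.386, edgeR adjusted P = 6.13e-06).

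*Usp17la* (ENSMUSG00000054568), at chr7:104857009-104862667 on the plus strand, had the lowest mean count per length in *Ehmt2* GKO oocytes, with libraries that overlapped those of *Usp17ld*. Its counts were 0, 2 and 1 in control and 15, 17 and 17 in *Ehmt2* GKO libraries, a scaled ratio of 16.2 (exact 95% counting interval 5.24 to 81.5). The log2 fold change was 3.87 (SE 0.699, edgeR adjusted P = 0.000139), and 4.71 without control replicate 2, which held 2 of the 3 control reads.

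**Figure D1:**
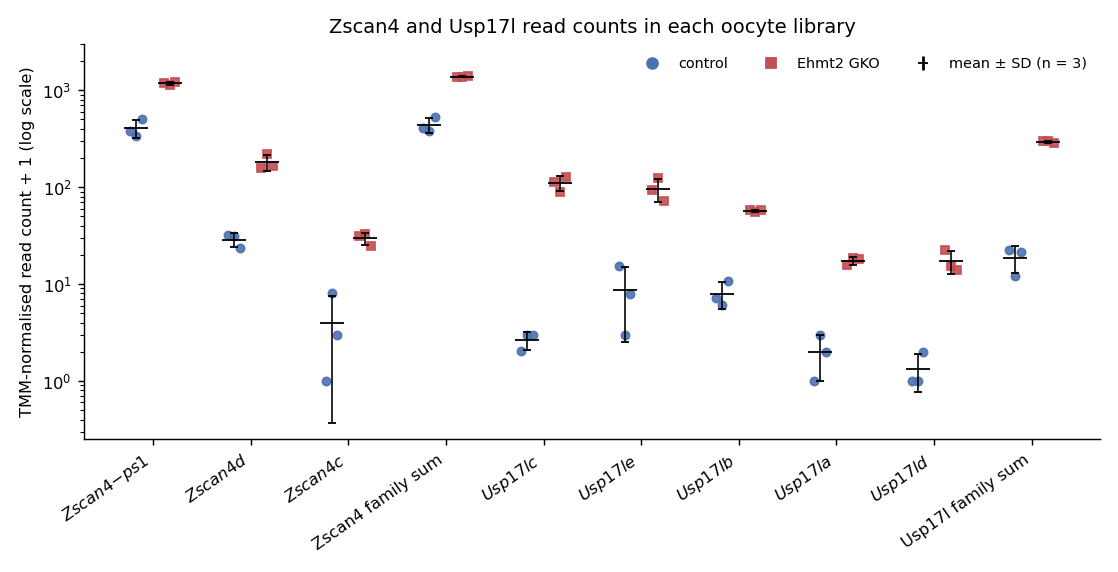
TMM-normalised read count plus 1 (log axis) of each listed *Zscan4* and *Usp17l* gene and of both family sums, with control libraries as circles, *Ehmt2* GKO libraries as squares and bars at the mean ± SD of n = 3 libraries. In all 8 genes and both sums the lowest *Ehmt2* GKO library lies above the highest control library, and 4 genes have fewer than 10 reads in every control library.

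All 8 members passed the filter on low counts, all 8 were called higher, and in all 8 every *Ehmt2* GKO library exceeded every control library. Among all tested genes 18.7% were called higher and 48.9% had such a separation upwards. Only *Zscan4-ps1* and *Zscan4d* had at least 10 reads in every control library, so the other 6 passed the filter through their *Ehmt2* GKO libraries. Their difference was a condition of being tested. The members' median log2 fold change was 3.40, against 1.71 for all genes called higher and a 95th percentile of 2.59 for all tested genes. That median includes those 6 genes, while *Zscan4-ps1* and *Zscan4d* were at 1.54 and 2.69. In bulk libraries a transcript made by a few oocytes and one made at a low level by every oocyte cannot be told apart.

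**Figure D2:**
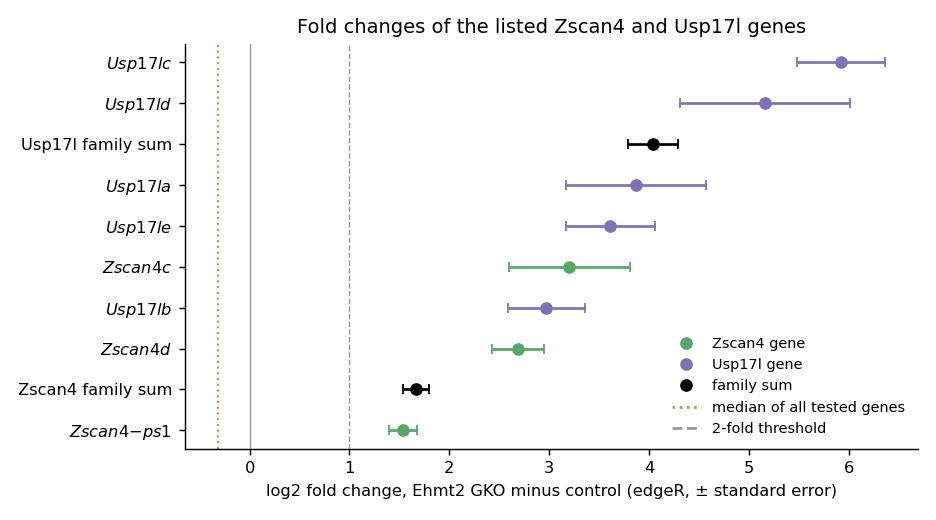
Log2 fold change of *Ehmt2* GKO against control oocytes (edgeR, bars ± standard error) for the 3 *Zscan4* genes, the 5 *Usp17l* genes and both family sums, with the 2-fold threshold dashed and the median of all tested genes, -0.32, dotted. *Zscan4-ps1* is lowest at 1.54 and *Usp17lc* highest at 5.92.

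Per kilobase of annotated exon, the normalised counts in control oocytes were led by *Zscan4-ps1* at 201, followed by *Zscan4d* at 12.2, *Usp17lb* at 4.48, *Usp17le* at 3.90 and *Zscan4c* at 1.31. *Usp17lc*, *Usp17la* and *Usp17ld* were at 0.678, 0.375 and 0.164 per kilobase. In *Ehmt2* GKO oocytes *Zscan4-ps1* led again at 583 per kilobase, with *Zscan4d* at 78.9, *Usp17le* at 48.1, *Usp17lc* at 44.4, *Usp17lb* at 35.8, *Zscan4c* at 12.6, *Usp17ld* at 8.17 and *Usp17la* at 6.14. Some neighbours in these orders overlap between libraries, and the orders were not tested. Examples of overlap are *Usp17le*, *Usp17lc* and *Usp17lb*, or *Usp17ld* and *Usp17la*, in *Ehmt2* GKO, and *Zscan4c* and the 3 lowest genes in control. Within each *Ehmt2* GKO library, though, *Usp17lc* exceeded *Usp17lb* and *Usp17ld* exceeded *Usp17la* per kilobase, at times narrowly.

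Copies of a family can exchange reads, so the listed copies were also added up. The summed *Zscan4* counts were 398, 375 and 534 in control and 1404, 1353 and 1404 in *Ehmt2* GKO libraries. The sum rose 3.17-fold by scaled counts (exact 95% counting interval 2.98 to 3.37), from 436 ± 77.0 to 1383 ± 16.5 normalised counts, with a log2 fold change of 1.67 (SE 0.130, edgeR adjusted P = 2.46e-08). The summed *Usp17l* counts were 21, 11 and 21 in control and 307, 290 and 284 in *Ehmt2* GKO libraries. This sum rose 16.5-fold (12.5 to 22.2), from 17.7 ± 5.82 to 293 ± 8.42, with a log2 fold change of 4.04 (SE 0.248, edgeR adjusted P = 1.31e-09). In the table with family sums 18.5% of the tested rows were called higher. The exact 2-sided permutation test gave P = 0.10 for either sum, the smallest value that 3 against 3 libraries allow.

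Among the *Ehmt2* GKO libraries, *Usp17lc* was highest and *Usp17le* lowest in replicate 5, and the reverse held in replicate 4, while the *Usp17l* sum stayed between 283 and 299 normalised counts. Without *Zscan4-ps1* the *Zscan4* sum was 30, 37 and 25 counts in control and 191, 246 and 187 in *Ehmt2* GKO libraries, and its log2 fold change was 2.75 (SE 0.248, edgeR adjusted P = 1.21e-07). Without *Usp17lc* the *Usp17l* sum had a log2 fold change of 3.51 (SE 0.297, edgeR adjusted P = 6.36e-08). Both of these sums were formed after the values had been seen.

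The share of some copies in their family shifted as well, in 4 of the 8 without overlap between the groups. Shares within a family trade off, so these 4 shifts are not independent of each other. Such shares were formed for these families only, so no background stands beside that count. *Zscan4-ps1* supplied 92.6% ± 2.60 of the listed *Zscan4* reads in control and 85.0% ± 2.73 in *Ehmt2* GKO oocytes, with every *Ehmt2* GKO library below every control library. The share of *Zscan4d* went from 6.61% ± 2.01 to 13% ± 2.54, and these groups did not overlap either. *Usp17lc* supplied 10.8% ± 6.8 of the listed *Usp17l* reads in control and 37.3% ± 7.37 in *Ehmt2* GKO, while *Usp17lb* went from 40.5% ± 10.4 to 19.1% ± 0.912. The shares of *Usp17le*, 39.4% ± 24.8 and 32.5% ± 8.26, overlapped between the groups, as did those of *Usp17la*, *Usp17ld* and *Zscan4c*. The control shares of *Usp17l* copies rest on 53 reads in all.

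**Figure D3:**
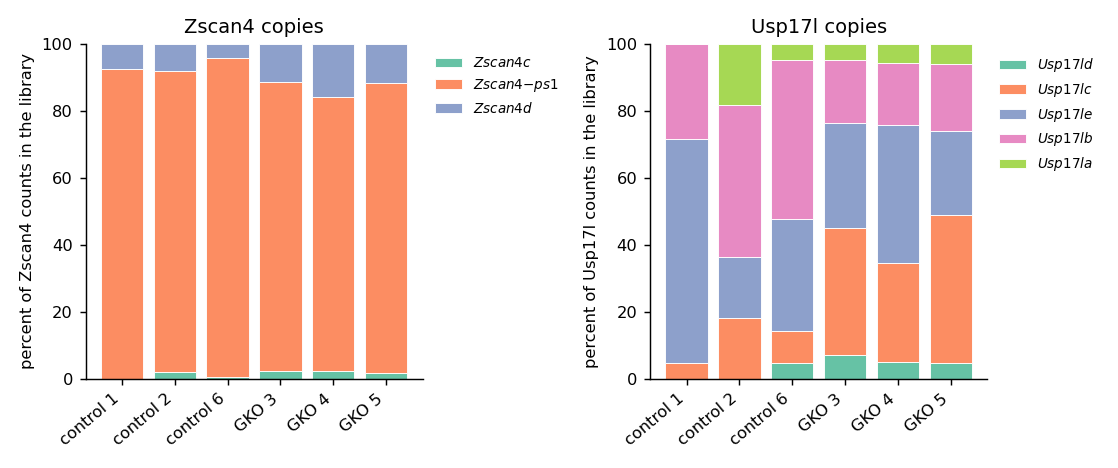
Percent of the listed *Zscan4* reads (left) and *Usp17l* reads (right) that each copy supplied in each library, with 1 stacked bar per library. *Zscan4-ps1* takes from 81.8% to 95.3% of the *Zscan4* reads in all 6 libraries, and *Usp17lc* takes from 29.7% to 44.4% of the *Usp17l* reads in the *Ehmt2* GKO libraries against 4.76% to 18.2% in control.

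Within a library, ratios of 1 transcript to another do not depend on the scaling, and 3 of them were compared after the values had been seen. The ratios of *Zscan4d* and of *Usp17lc* restate the shifts of share given above. The *Usp17l* to *Zscan4* ratio of summed counts was 0.0528, 0.0293 and 0.0393 in control and 0.219, 0.214 and 0.202 in *Ehmt2* GKO libraries. The *Usp17l* sum therefore rose by 2.43 more than the *Zscan4* sum on the log2 scale (SE 0.247). The *Zscan4d* to *Zscan4-ps1* ratio was 0.0815, 0.0888 and 0.0452 in control and 0.132, 0.194 and 0.134 in *Ehmt2* GKO, a log2 difference of 1.13 (SE 0.357). The ratio of *Usp17lc* to the other *Usp17l* genes was 0.05, 0.222 and 0.105 in control and 0.607, 0.422 and 0.797 in *Ehmt2* GKO, a log2 difference of 2.48 (SE 0.676). In all 3 ratios the groups did not overlap, and the exact 2-sided permutation test gave its smallest possible P of 0.10, with a Benjamini-Hochberg value of 0.10 over the 3.

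How well the copies can be told apart differed between the families. GENCODE vM21 annotates 9 *Zscan4* loci over 820 kb and 6 *Usp17l* loci over 1613 kb, and 6 *Zscan4* loci and 1 *Usp17l* locus were not analysed here. The sums above therefore cover listed copies only. The longest transcripts of the 3 listed *Zscan4* genes were 97.1% to 97.5% identical. *Zscan4c* was 99.6% identical to *Zscan4f* and 99.3% to *Zscan4-ps2*, and 72.8% of its 100-base windows occurred unchanged in another *Zscan4* locus. For *Zscan4d* this share was 29.6%, and for *Zscan4-ps1* 23.4%. *Usp17lc* and *Usp17ld* were 97.9% identical, with 32.3% and 39.5% of windows shared, and the other pairs of listed *Usp17l* genes were 90.4% to 94.9% identical. *Usp17lb* shared 10.3%, *Usp17le* 8.73% and *Usp17la* 3.32% of windows. Assignment of reads is thus least certain for *Zscan4c* and, among the *Usp17l* genes, for *Usp17ld* and *Usp17lc*. The treatment of reads that match several loci was not given in the sources used here.

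**Figure D4:**
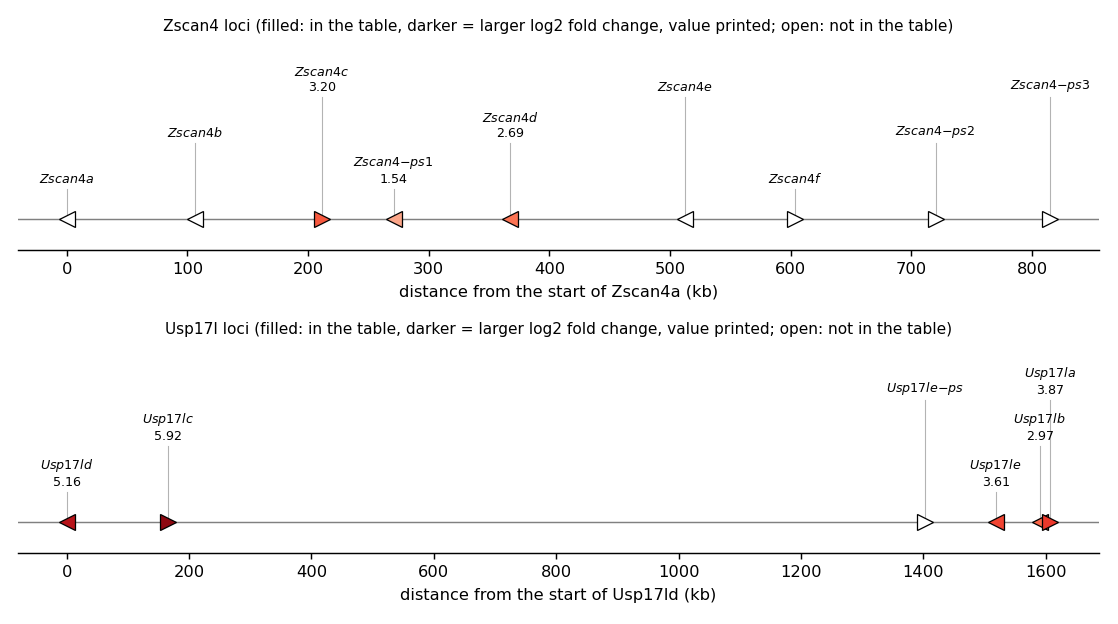
Annotated *Zscan4* (top) and *Usp17l* (bottom) loci by distance in kb from the first locus of each cluster, with triangles that point along the strand. Filled triangles are genes in the table, coloured and labelled by log2 fold change, and open triangles are loci not analysed here. *Usp17ld* and *Usp17lc* (5.16 and 5.92) lie more than 1000 kb from the other *Usp17l* loci, and the value of *Usp17ld* rests on a single control read.

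The *Usp17l* genes form a pair, *Usp17ld* and *Usp17lc*, and a trio, *Usp17le*, *Usp17lb* and *Usp17la*, that are separated by more than 1000 kb. The pair had log2 fold changes of 5.16 and 5.92 and the trio of 2.97 to 3.87. The value of *Usp17ld* rests on a single control read, and without control replicate 2 *Usp17ld* was at 4.70 and *Usp17la* at 4.71, so the difference between pair and trio does not hold for *Usp17ld* there. Few genes within 500 kb of a member were listed, but the table holds only genes chosen for a difference. The listed share of all annotated genes was not computed, so these counts have no background beside them. Around the *Zscan4* genes 2 of 70 annotated genes were listed besides the members, *Gm6909*, which rose (log2 fold change 1.54, SE 0.351), and *Gm45379* at -0.75 (SE 0.148), which did not pass the fold threshold. Around the pair 3 of 96 were listed, *Olfr602-ps1*, an olfactory receptor pseudogene that rose by 2.33 (SE 0.421), and *Olfr608* and *Gm25774*, both with 0 reads in every control library and not tested. *Olfr608*, an olfactory receptor gene, was counted 5, 7 and 5 times in *Ehmt2* GKO libraries. Around the trio 3 of 74 were listed. *Trim30d*, of the tripartite motif family, rose from 238, 208 and 158 to 573, 684 and 613 counts (log2 fold change 1.62, SE 0.168). The olfactory receptor gene *Olfr667* rose by 1.16 (SE 0.353), and *Gm45272* was at 0.66 (SE 0.162). The call of *Olfr667* was lost without control replicate 2 or 6 or without *Ehmt2* GKO replicate 3 or 4, with log2 fold changes of 1.08, 1.01, 1.15 and 0.89.

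Most of the other listed genes of the 2-cell programme rose, and *Tcstv1* and *Tcstv3* had negative log2 fold changes inside the 2-fold threshold. Of 49 other 2-cell genes looked for, 10 were listed and 9 tested. Of the 9, 6 were called higher (18.7% of all tested genes were), 0 lower and 3 neither. Their median log2 fold change was 1.92 against -0.32 for all tested genes. Among the 6 called, only *Ddit4l* had at least 10 reads in every control library. The others passed the filter on low counts through their *Ehmt2* GKO libraries, so their difference was a condition of being tested. *B020004J07Rik* rose most, from 2, 2 and 0 to 28, 41 and 12 counts, a log2 fold change of 4.21 (SE 0.719). *Pramef6*, a PRAME family gene, was counted 6, 13 and 10 times in control and 85, 76 and 91 times in *Ehmt2* GKO libraries, a log2 fold change of 3.10 (SE 0.353). *Gm5039* went from 12, 5 and 9 to 62, 72 and 77 counts (3.0, SE 0.377). In these 3 genes the groups did not overlap.

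*Tdpoz1*, a gene of the TRAF and POZ domain family, rose by 2.48 (SE 0.457), from 10, 5 and 33 to 64, 112 and 92 counts, and without control replicate 6 its log2 fold change reached 3.52. *Tmem92*, which encodes a membrane protein, rose by 1.92 (SE 0.436). *Ddit4l*, an inhibitor of mTOR signalling, rose by 1.80 (SE 0.375). *Rfpl4b*, with 0 reads in every control and 14, 12 and 9 in *Ehmt2* GKO libraries, did not enter the test. *Tcstv1* and *Tcstv3*, of the 2-cell-stage variable group, had lower counts in *Ehmt2* GKO oocytes. *Tcstv1* went from 1953, 1779 and 1856 to 1112, 1000 and 927 counts, a log2 fold change of -0.89 (SE 0.108). *Tcstv3* went from 356, 389 and 325 to 219, 188 and 135 counts (-0.99, SE 0.180), and it passed the fold threshold in 4 of 14 alternative settings. *Gm4981* was at 0.88 (SE 0.110). Several of these genes have close copies, so that the split of reads among them is as uncertain as within the *Zscan4* family.

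**Figure D5:**
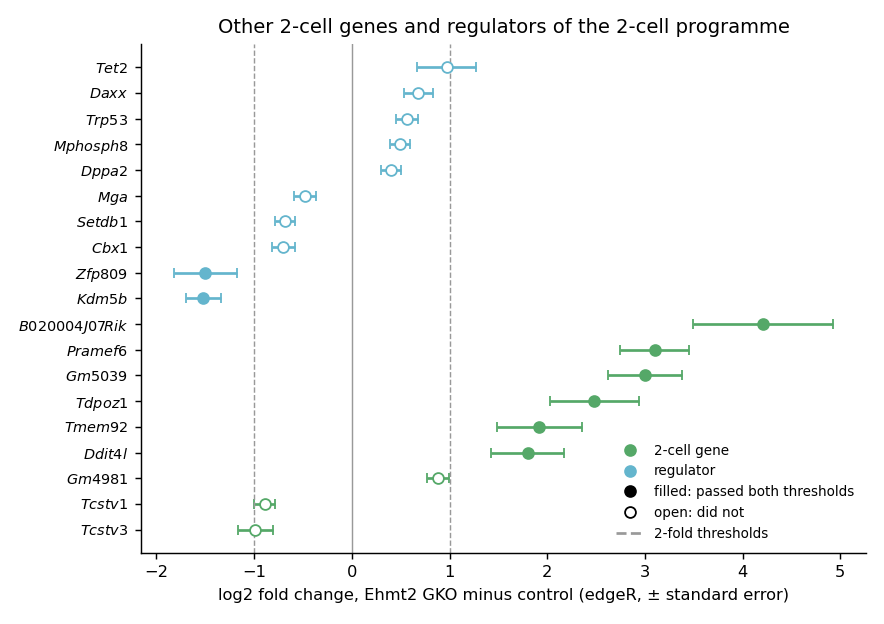
Log2 fold change of *Ehmt2* GKO against control oocytes (edgeR, bars ± standard error) for the tested 2-cell genes other than the members (green) and regulators of the 2-cell programme (blue), with filled points for called genes and dashed lines at 2-fold. *B020004J07Rik* lies highest at 4.21, and *Kdm5b* and *Zfp809* are the 2 regulators called lower.

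Of 49 regulators of the 2-cell programme looked for, 10 were listed and tested. None was called higher, against 18.7% of all tested genes, and 2 were called lower, against 16.9%, with 8 of 10 inside the 2-fold threshold. *Kdm5b*, a demethylase of histone H3 lysine 4, fell from 325, 253 and 291 to 113, 95 and 97 counts, a log2 fold change of -1.52 (SE 0.182). *Zfp809*, a zinc finger protein that recruits silencing to retroviral elements, fell by 1.5 on the log2 scale (SE 0.321), from 68, 91 and 101 to 30, 43 and 19 counts. The groups did not overlap in either gene. *Setdb1*, another methyltransferase of histone H3 lysine 9, was at -0.68 (SE 0.102) and *Cbx1*, which binds that methyl mark, at -0.70 (SE 0.117). *Dppa2*, an activator of the DUX gene, was at 0.40 (SE 0.102), with 1029, 1064 and 1090 counts in control and 1463, 1305 and 1447 in *Ehmt2* GKO libraries. *Trp53*, the p53 gene, was at 0.56 and *Daxx*, a histone chaperone gene, at 0.68. *Mphosph8*, of the HUSH silencing complex, was at 0.49 and *Mga*, of a Polycomb-type repressor, at -0.48. *Tet2*, a methylcytosine dioxygenase, was at 0.97 (SE 0.299) and passed the fold threshold in 8 of 14 alternative settings. The other genes of the list, the DUX gene included, were not analysed here.

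*Ptgs2*, a prostaglandin synthase gene that cumulus cells switch on at ovulation, moved with the members. It was counted 6, 10 and 14 times in control and 107, 74 and 59 times in *Ehmt2* GKO libraries, a log2 fold change of 2.98 (SE 0.382, edgeR adjusted P = 5.46e-06). *Kitl*, made by granulosa cells, was at -0.63, with 368, 325 and 335 against 225, 254 and 188 counts. The other 21 cumulus and granulosa markers were not analysed here, and the part of other cells in the result was not tested. Among the 8 listed oocyte markers *Zp3*, a zona pellucida gene, was called lower at -1.05 (SE 0.0966), and it was at -0.96 with RLE factors or DESeq2, inside the 2-fold threshold. The other 7 had log2 fold changes from -0.86 to 0.51.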

How the data were processed

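The authors sequenced polyadenylated RNA of oocytes labelled as MII, amplified with the SMART-Seq v4 Ultra Low Input kit. They deposited read counts per gene as whole numbers, which were taken here as counts without normalisation. The submitters' processing notes name HISAT2, DESeq2 and GRCm38. The counting program, its annotation and its treatment of shared reads are not given in the sources used here. The deposited fold changes and P values were not used, except to check that all 2615 genes have an adjusted P below 0.05. Bisulfite libraries of oocytes and embryos were not analysed here.

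Column sums ranged from 4060653 to 4258350. The counts were tested with edgeR 4.0.16 in R 4.3.3, with filterByExpr (minimum count 10), TMM factors and the quasi-likelihood test, adjusted over 2516 genes. Normalised counts were scaled by TMM effective library sizes. For each family sum, the rows of the family were replaced by 1 row. Exact permutation tests and Clopper-Pearson intervals, which cover counting error only, came from scipy 1.17.1. The fits were tested on simulated data. GENCODE vM21 gave 2613 of 2615 identifiers, and all 8 members had the table's coordinates. Transcripts and start windows were aligned with Biopython 1.88. Alternatives were other normalisations, DESeq2 1.42.0, limma voom 3.58.1, a test against 2-fold, other filters and leaving out each library. Another limited the family sums to protein-coding rows, which left them unchanged because all 8 members are protein coding. The sums without *Zscan4-ps1* and without *Usp17lc* were added after seeing the data. Genes named were all members, the listed genes of the lists, other USP genes only where called, listed genes within 500 kb, and the 5 genes most correlated with each sum. A further item is not reported here. The members and lists were chosen with earlier results of these data known.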

Additional observations from a re-analysis of the deposited data

How the results depend on the processing

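All 106 values of single members and all 32 values of the family sums under the alternatives were called higher, and none reversed. Every row was listed for a difference, and 6 members passed the main filter on low counts through their *Ehmt2* GKO libraries. These calls therefore largely repeat that selection and are no independent check. The share of all tested genes that kept their call was not computed. The limit to protein-coding rows removed no member, so its values for the sums, 1.67 and 4.04, are those of the main fit. Leaving out each library in turn gave log2 fold changes of 1.56 to 1.81 for the *Zscan4* sum and 3.78 to 4.19 for the *Usp17l* sum, and 8 called members each time. A filter on 10 counts in each library left 2 members, *Zscan4-ps1* and *Zscan4d*, both called higher. The other 6 gave no value there, because that filter removes genes with few control reads. Over all genes, that filter gave 297 called higher and 314 lower against 471 and 426, and the test against a fold change of 2 gave 185 higher and 75 lower. RLE factors gave 523 higher and 358 lower. Among 61 other named genes, 793 of 845 values kept their call, and 19 genes changed it in at least 1 setting. The test against a fold change of 2 ended the calls of *Ddit4l*, *Tmem92*, *Kdm5b*, *Zfp809*, *Usp11*, *Usp25*, *Zkscan4* and *Gm6909*, among others. No paired analysis was possible because no replicate number occurs in both groups. Control counts below 10 limit the precision of 6 members, and their fold changes depend on the handling of low counts. Rows chosen for a difference leave TMM without an unselected background.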

Other observations

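Other deubiquitinase genes of the USP class were listed 5 times, and 3 of them were called higher, against 18.7% of all tested genes. *Usp13* went from 252, 308 and 268 counts in control to 848, 919 and 950 in *Ehmt2* GKO libraries, a log2 fold change of 1.71 (SE 0.132, edgeR adjusted P = 2.39e-08). *Usp11* rose by 1.47 (SE 0.258) and *Usp25* by 1.16 (SE 0.3). The other 2 did not pass the fold threshold. Of 4 other listed SCAN zinc finger genes, 1 was called higher against the same 18.7%, *Zkscan4* at 1.07 (SE 0.235). That call was lost without control replicate 1 (0.98) or *Ehmt2* GKO replicate 4 (0.94). *Zscan10*, *Zscan29* and *Zkscan1* were at 0.94, 0.76 and 0.63. None of these 9 genes reached the range of the 5 listed *Usp17l* genes, 2.97 to 5.92. Those 5 passed the filter on low counts through their *Ehmt2* GKO libraries, so their difference was a condition of being tested. The gap between the ranges is therefore no result about the family.

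Telomere and meiotic recombination genes were looked for because of the known link of ZSCAN4 with telomeres, and 7 of 21 were listed. Of these, 2 were called lower, against 16.9% of all tested genes, and 0 higher, against 18.7%. *Tex15*, a gene needed for meiotic recombination in male germ cells and for silencing of transposons there, fell from 3726, 3047 and 3334 to 359, 362 and 324 counts, a log2 fold change of -3.28 (SE 0.122, edgeR adjusted P = 1.28e-12). *Pot1b*, a shelterin gene, fell by 1.06 (SE 0.324), but was at -0.97 with RLE factors, at -0.87 without control replicate 1, -0.96 without *Ehmt2* GKO replicate 4 and -0.93 without *Ehmt2* GKO replicate 5. Without control replicate 6 it stayed at -1.06 and missed the adjusted P threshold. The shelterin genes *Acd*, *Tinf2* and *Terf2* were at -0.50, -0.30 and 0.47, and the meiotic genes *Tex11* and *Mei4* at -0.86 and -0.59. None of these 5 passed the fold threshold.

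On log2 scaled counts over the 6 libraries, the rows most like the *Zscan4* sum were *Tmod2* (Pearson r = 0.9992), *Fam171b*, *Olfr1217*, *Gm8817* and *Gm29129*. The rows most like the *Usp17l* sum were *Olfr1257* (r = 0.9993), *Gab1*, *Cps1*, *Gm6104* and *Mpv17l*. The 6 libraries fall into 2 groups by design, and of 2607 rows compared, 790 and 779 had r above 0.9, so a high r is common in this table. *Olfr1257* went from 3, 0 and 2 to 231, 200 and 174 counts, and *Gab1*, an adaptor protein gene, from 24, 14 and 29 to 488, 491 and 533.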
